A study of Mus musculus with 12 samples.

Results

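Imprinted genes are expressed mainly from the chromosome inherited from 1 parent, under the control of marks such as methylation that are set in the egg or the sperm. Many of them are active in the developing and adult brain, where they act on growth, neuronal survival and feeding. The 10 genes described here are Ndn (which encodes necdin), Magel2, Snrpn, Peg3, Meg3, Dlk1, Zdbf2, Nnat, Plagl1 and Impact, 10 of the 55573 genes in the count table. They were chosen by name because the Ndn transcript is lower in part of these data, in APP/PS1 females, to see whether other imprinted genes move with it. The Ndn differences between the genotypes are therefore a description with no test, in either sex. The other 9 genes were chosen as imprinted genes and are tested.

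The measurements are gene counts from RNA sequencing of right hippocampi, taken from C57BL/6J mice at 4.5 months of age. Either sex was represented by 4 APP/PS1 animals and 2 WT animals. The APP/PS1 mice (genotype APPSwe/Ps1dE9) carry a chimeric mouse and human APP with the Swedish mutation together with human PS1 lacking exon 9, both driven by a prion promoter element, and model early amyloid deposition. Because whole tissue was sequenced, fewer cells of a type and less RNA per cell cannot be told apart, and the counts do not separate the maternal from the paternal copy.

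Counts on genes ranged from 36714316 to 50643565 per library, and 14008 genes passed an expression filter (CPM being counts scaled to a common library size), which required 3 or more libraries to reach a log2 CPM of 1. The levels given below are CPM scaled by upper-quartile library factors (normalized CPM). Thy1, a neuronal surface gene, separated the labelled genotypes without overlap and lay between 2170 and 3310 normalized CPM in the 8 APP/PS1 libraries and between 726 and 747 in the 4 WT libraries. Prnp, whose promoter drives the transgenes, differed little between the genotypes (log2 fold change -0.04 over both sexes, edgeR adjusted p = 0.813). Markers of hippocampal principal cells summed to between 873 and 1040 normalized CPM in all 12 libraries, whereas 10 hypothalamic markers summed to between 2.05 and 10.5 and none of them passed the filter. Of those, Sim1 had no count in any library.

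A group of 3 libraries stood apart. APP/PS1 female 1, WT female 2 and APP/PS1 male 2 held between 3530 and 6360 normalized CPM of Ttr, the transthyretin gene of the choroid plexus, against 2.69 to 18.3 in the other 9. The whole list of 15 choroid plexus markers summed to between 5840 and 10400 normalized CPM in these 3 libraries and to between 142 and 203 in the other 9. Folr1 and Kl followed the same split, with 24.4 to 50.3 against 0.39 to 0.847 for Folr1, and 130 to 212 against 16.2 to 22.7 for Kl. The choroid plexus-rich libraries are marked in the figures that show single libraries, and in the text for some genes only. Unless stated otherwise, the results include all 3 of them.

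The 10 genes spanned a wide range of levels. Per kilobase of exon, Nnat was the most abundant at 159.9 CPM per kb on average over the 12 libraries, and its lowest library (117) lay above every library of the other 9 genes. Snrpn (64.8), Impact (50.9), Ndn (42.8) and Peg3 (23.9) followed. The libraries of Ndn (32.1 to 62.0 CPM per kb) overlapped those of both Snrpn and Impact, whereas those of Peg3 (20.5 to 27.4) overlapped none of these. Meg3 averaged 7.94 CPM per kb, Zdbf2 2.64 and Plagl1 2.45. Zdbf2 and Plagl1 overlapped across libraries, and the lowest library of Meg3 (3.39) lay within the range of both. Dlk1 (0.360 CPM per kb) and Magel2 (0.268) were the lowest, also overlapped, and had only 40 to 187 and 13 to 136 counts per library. Of the 10 genes, all but Magel2 passed the expression filter.

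Ndn, Magel2 and Snrpn lie in the mouse counterpart of the Prader-Willi region on chromosome 7, where the paternal copy is expressed. Ndn (ENSMUSG00000033585) occupies chr7:62346569-62350262 on the plus strand of GRCm38 as a single exon. Magel2 (chr7:62377010-62381640) begins 26.7 kb beyond it, and Snrpn (chr7:59982495-60140219) lies 2.21 Mb away on the minus strand. Necdin is a MAGE family protein that restrains growth and promotes the survival of postmitotic neurons.

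Ndn was at 222 and 229 normalized CPM in the 2 WT females. In the APP/PS1 females it was at 194, 125, 124 and 133. In the WT males it was at 139 and 147, and in the APP/PS1 males at 119, 198, 143 and 124. All 4 APP/PS1 females were thus below both WT females, an order that 6.61% of all genes tested showed. The means of these groups were 144 ± 33.6 (SD, n = 4) and 226 ± 4.88 (SD, n = 2). The fitted log2 fold change in females was -0.63 (SE 0.13), or 0.646-fold. The WT females also lay above every male, with a fitted log2 difference from WT males of 0.53 (SE 0.15). As these females are the values for which Ndn was chosen, no test is given for either difference.

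**Figure D1:**
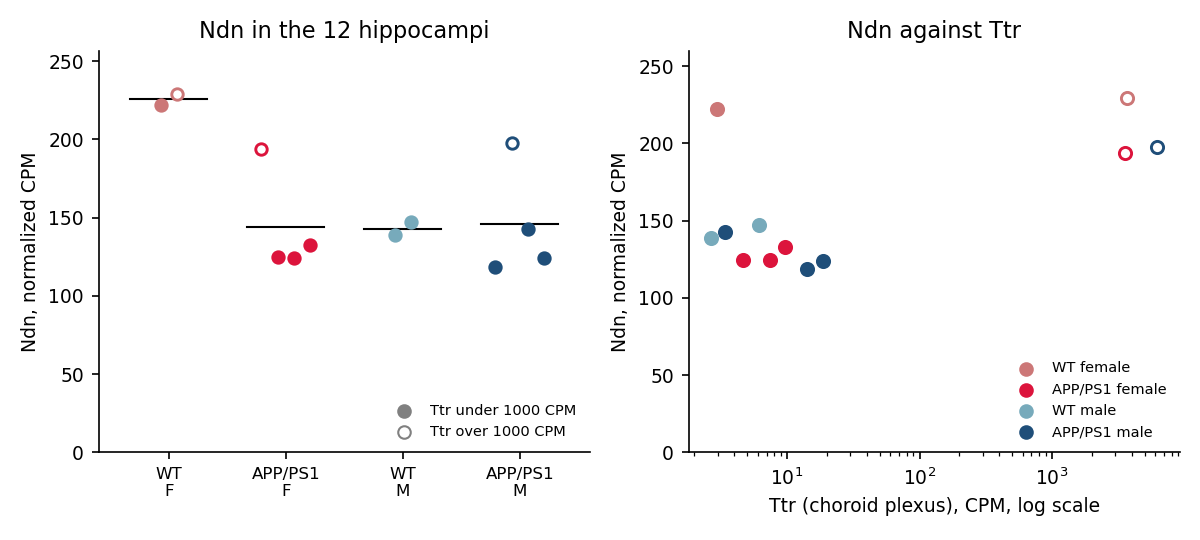
Left, Ndn in normalized CPM for each library by group (F, females; M, males; lines, group means; open points, libraries with Ttr over 1000 CPM). Right, the same Ndn values against Ttr in CPM on a log axis. The 4 highest Ndn values, 194 to 229, are those of the 3 libraries with high Ttr and of WT female 1, whose Ttr is low.

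In males, Ndn differed by a log2 fold change of -0.09 (SE 0.13), with an approximate 95% interval from -0.35 to 0.16. Since Ndn was chosen for falling in only part of the data, this too is a description with no test. The groups overlapped, with group means of 146 ± 36.2 (SD, n = 4) in APP/PS1 and 143 ± 6.15 (SD, n = 2) in WT. The interaction, the log2 fold change of females minus that of males, was -0.54 (SE 0.18) and is given with no test.

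Across the 12 libraries, Ndn fell into separate clusters. One held 4 libraries at 194 to 229 normalized CPM and the other 8 libraries at 119 to 147. The upper cluster was made of the 3 choroid plexus-rich libraries and WT female 1. The single high animals of the APP/PS1 females (194) and of the APP/PS1 males (198) were the choroid plexus-rich ones. WT female 1, at 222, had only 2.94 normalized CPM of Ttr. Without the 3 choroid plexus-rich libraries the female log2 fold change was -0.82 and the male one -0.15, with 3 APP/PS1 females set against 1 WT female. The part of choroid plexus tissue in the Ndn levels was not tested.

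The genes whose log2 levels followed Ndn most closely over the 12 libraries were not among the other 9. They were Ano6 (Pearson r = 0.868), which encodes a phospholipid scramblase, the kinesin gene Kif1c (0.861), the predicted gene Gm7694 (0.847), the matrix gene Fbln1 (0.847) and Igf2r (0.845), the receptor that clears IGF2 and itself an imprinted gene. Among 14007 genes ranked by this r, Plagl1 (0.419) came 1819th, Meg3 (0.337) 2636th and Peg3 (0.268) 3407th. Zdbf2 (-0.06), Nnat (-0.11) and Dlk1 (-0.14) lay in the middle of the ranking, whereas Snrpn (-0.57) and Impact (-0.60) were close to its bottom. The choroid plexus genes Kl (0.751), Folr1 (0.720) and Ttr (0.635) ranked 83rd, 146th and 452nd. Ano6, Gm7694 and Fbln1 were higher in each choroid plexus-rich library than in any other library, whereas Kif1c and Igf2r overlapped. The share of all genes that split this way was not computed. The values of r describe likeness only, over libraries that share 4 high values of Ndn.

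Because of those clusters, the relation of Ndn with each other gene was tested within the 6 APP/PS1 animals that were not choroid plexus-rich, which also leaves out the 2 of 8 APP/PS1 animals farthest from the median of Ndn. Pearson's r ranged from -0.30 (Meg3) to 0.636 (Zdbf2), and no relation passed adjustment (exact permutation tests, lowest unadjusted p = 0.161, lowest adjusted p = 0.888 over 18 relations, n = 6). By Spearman's rho the lowest adjusted p was 0.683 (exact permutation tests, n = 6). The number of animals limits what this comparison can detect.

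Magel2, a MAGE family gene of the hypothalamus and the closest neighbour of Ndn, did not pass the expression filter. It was at 1.11 and 2.98 normalized CPM in WT females, 0.735, 1.44, 1.36 and 0.362 in APP/PS1 females, 1.29 and 1.38 in WT males, and 0.787, 0.639, 1.56 and 1.22 in APP/PS1 males. The groups overlapped in both sexes. With a filter of 1 CPM in place of a log2 CPM of 1, its log2 fold change was -0.90 (SE 0.48, edgeR adjusted p = 0.597) in females and -0.33 (SE 0.46, adjusted p = 0.997) in males. The WT female at 2.98 was WT female 2, a choroid plexus-rich library. The ratio of group means, APP/PS1 over WT, was 0.475 in females and 0.948 without the choroid plexus-rich libraries, which left 1 WT female. In males these ratios were 0.788 and 0.891. Snrpn, which encodes a splicing protein, was at 126 normalized CPM in each WT female and between 131 and 165 in the APP/PS1 females, which did not overlap. Its log2 fold change was 0.09 (SE 0.07, adjusted p = 0.745) in females, opposite in sign to that of Ndn, and 0.0014 (SE 0.07) in males. Of the 2159 exonic bases of Snrpn, 805 are shared with other genes on the same strand, among them Snurf, which had no count in any library, so its level is uncertain.

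In APP/PS1 against WT females, 0 of the 8 tested genes other than Ndn passed a false discovery rate (FDR) of 0.1 by edgeR's quasi-likelihood test, against 0.764% of all genes tested. At an unadjusted p under 0.05 there was 1 gene, Impact, against 9.77% of all genes. edgeR's likelihood ratio test and DESeq2 also called 0 of the 8, against 2.06% and 2.11% of all genes. Of the 8, 5 had a negative log2 fold change, with a median of -0.13 beside 0.01 over all genes tested, of which 45.9% were negative. These 5 values depended on single WT females. Without WT female 2, which was choroid plexus-rich, they were -0.05 (Peg3), -0.04 (Zdbf2), -0.01 (Plagl1), 0.05 (Nnat) and 0.73 (Dlk1). Without WT female 1 they were -0.22, -0.18, -0.37, -0.46 and -1.05 in the same order. Each of these fits left 1 WT female. Peg3 alone was lower in every APP/PS1 female than in both WT females, an order that 6.61% of all genes tested showed. Snrpn and Impact were higher in every APP/PS1 female, as were 12.5% of all genes.

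In males, again 0 of the 8 passed by edgeR, against 0.171% of all genes, whereas DESeq2 called 1, Zdbf2 (1.04% of all genes), and the likelihood ratio test called 0 (1.01%). At an unadjusted p under 0.05, 3 of the 8 genes were lower (Zdbf2, Nnat and Plagl1) and 0 were higher, where 5.7% of all genes had such a p in either direction. The median log2 fold change of the 8 was -0.26 beside 0.01 over all genes, and 6 of the 8 were negative, against 47.7% of all genes. Zdbf2 and Nnat were lower in all 4 APP/PS1 males than in both WT males, which 4.34% of all genes showed, and 0 of the 8 were higher in all 4, which 6.5% showed.

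**Figure D2:**
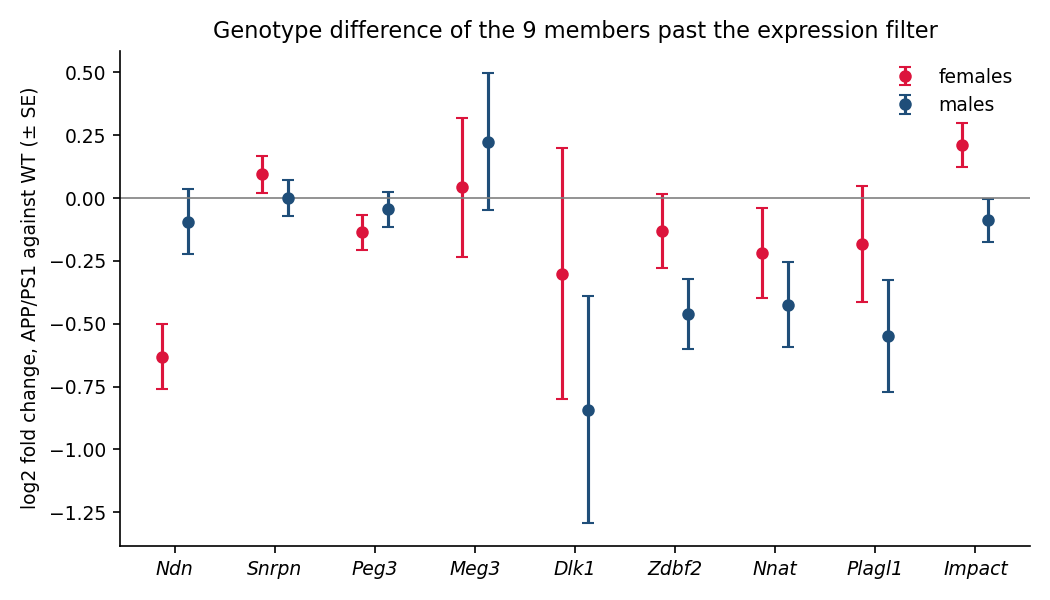
Log2 fold changes of APP/PS1 against WT for the 9 genes that passed the expression filter, in females and males (points, fitted values; bars, standard errors). Ndn, which was chosen for its fall in females, has the lowest value there, at -0.63. In males Dlk1, Plagl1, Zdbf2 and Nnat have the lowest values, from -0.84 to -0.42.

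Zdbf2 encodes a zinc-finger protein whose paternal copy is expressed in the brain (ENSMUSG00000027520, chr1:63273265-63314576, plus strand). It was at 43.8 and 42.3 normalized CPM in WT males and at 27.6, 23.2, 39.4 and 32.0 in APP/PS1 males. In females it was at 33.9 and 34.9 in WT and at 31.8, 34.8, 29.4 and 28.0 in APP/PS1. The APP/PS1 males were all below the WT males, whereas the female groups overlapped, and the WT males were the highest of the 12 animals. The log2 fold change was -0.46 in males (SE 0.14, edgeR unadjusted p = 0.00732, adjusted p = 0.479) and -0.13 in females (SE 0.15, adjusted p = 0.833). The difference between the sexes was not called (interaction 0.33, SE 0.20, unadjusted p = 0.137, adjusted p = 0.995).

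Whether Zdbf2 passed depended on the test and on 1 animal. DESeq2 gave an adjusted p of 0.0934 in males and of 0.0857 over both sexes. Without APP/PS1 male 3, which had the highest level of its group, edgeR's adjusted p was 0.0138 in males and 0.00945 over both sexes, with log2 fold changes of -0.64 and -0.37, where 0.307% and 1.94% of all genes passed. Over all alternatives the male log2 fold change stayed between -0.64 and -0.40, and 2 of 23 fits called it. The value of -0.40 came without APP/PS1 male 2, the choroid plexus-rich library, which had the lowest level of its group.

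Plagl1, also called Zac1, encodes a zinc-finger transcription factor that restrains cell division. It was at 21.8 and 27.4 normalized CPM in WT males and at 11.7, 16.9, 21.9 and 17.5 in APP/PS1 males. In females it was at 18.02 and 25.4 in WT and at 21.6, 20.5, 14.8 and 12.6 in APP/PS1. In males only APP/PS1 male 3 reached the WT values, and in females 2 of 4 did. The log2 fold change was -0.55 in males (SE 0.22, adjusted p = 0.820) and -0.18 in females (SE 0.23, adjusted p = 0.856). Without APP/PS1 male 3, the male log2 fold change was -0.82 and edgeR's adjusted p was 0.0118, whereas all other fits in males left it uncalled.

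Nnat encodes neuronatin, a small membrane protein of the endoplasmic reticulum, and lies within an intron of Blcap on the opposite strand. It was at 366 and 310 normalized CPM in WT males and at 234, 220, 278 and 250 in APP/PS1 males, with no overlap. In females it was at 292 and 360 in WT and at 214, 305, 352 and 327 in APP/PS1, and the lowest of these was the choroid plexus-rich library. The log2 fold change was -0.42 in males (SE 0.17, adjusted p = 0.820) and -0.22 in females (SE 0.18, adjusted p = 0.761). Without the choroid plexus-rich libraries the female value became 0.15. Over both sexes it was -0.32 (SE 0.12, adjusted p = 0.411).

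**Figure D3:**
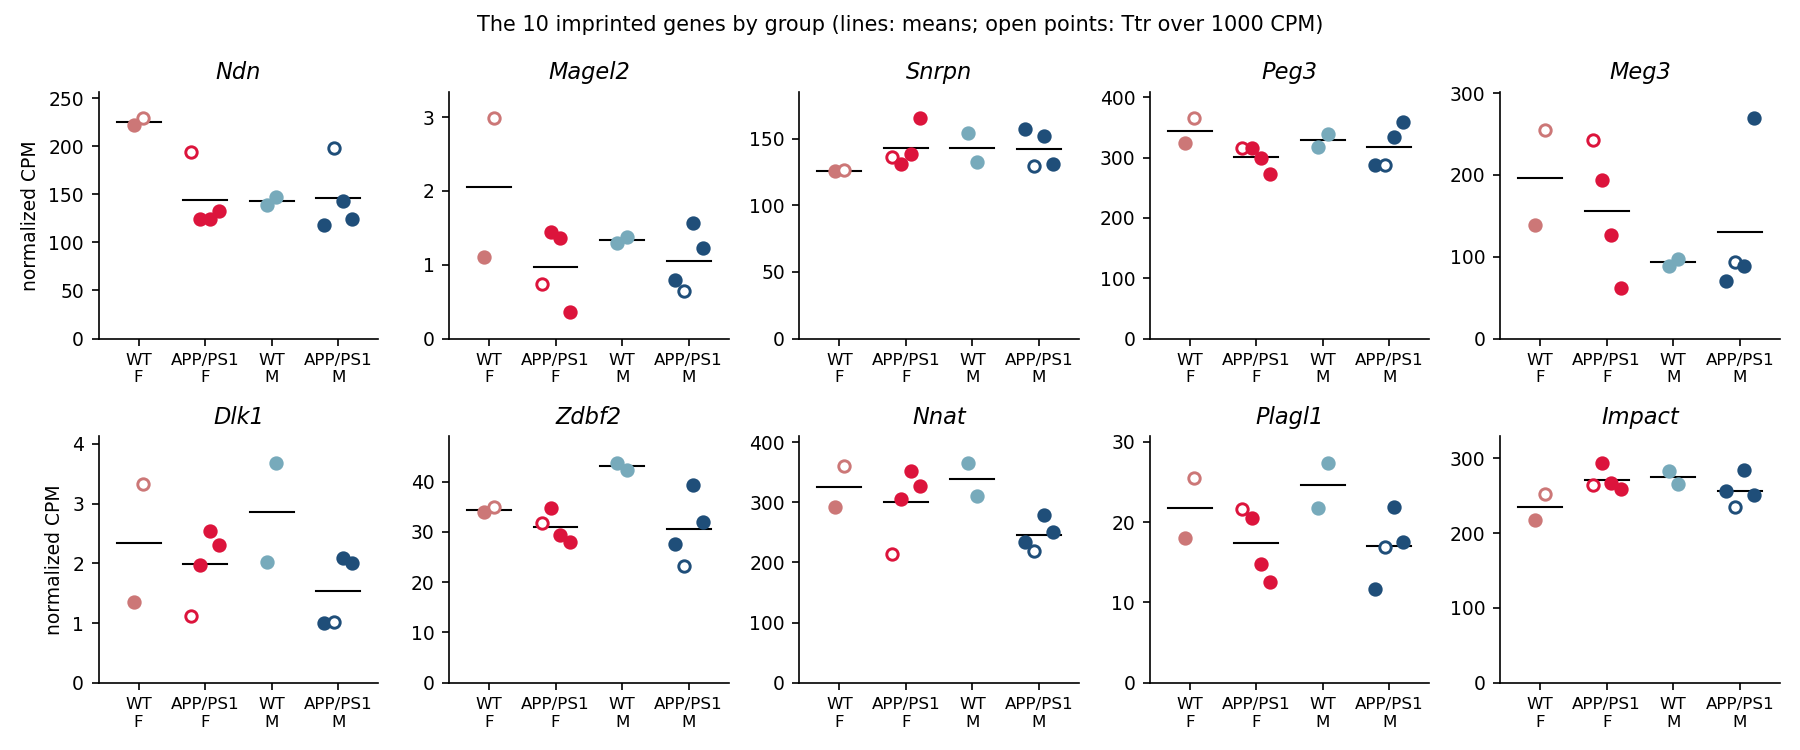
Normalized CPM of the 10 imprinted genes in each library by group (F, females; M, males; lines, group means; open points, libraries with Ttr over 1000 CPM; each vertical axis starts at 0). Ndn is high in both WT females, whereas Zdbf2 and Nnat are low in all APP/PS1 males relative to WT males.

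Peg3, a paternally expressed zinc-finger gene, and Impact, whose product restrains the kinase GCN2, had the smallest SD of log2 levels over the 12 libraries (0.13 and 0.121), with Snrpn next at 0.136. Peg3 ranged from 272.6 to 365 normalized CPM and Impact from 217 to 294 over the 12 libraries. The log2 fold change of Peg3 was -0.14 in females (SE 0.07, adjusted p = 0.574) and -0.05 in males (SE 0.07). That of Impact was 0.21 in females (SE 0.09, unadjusted p = 0.0313, adjusted p = 0.449) and -0.09 in males (SE 0.08), and its interaction had an unadjusted p of 0.0289 and an adjusted p of 0.995. The higher female value of Impact rested on WT female 1 (217 normalized CPM). Without that animal it was 0.08.

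Dlk1 and Meg3 are neighbours on chromosome 12 that are expressed from opposite parental copies, Dlk1 (a transmembrane protein of the Notch ligand family) from the paternal and the noncoding RNA Meg3 from the maternal. Their genes are 77.7 kb apart. Dlk1 was at 2.03 and 3.69 normalized CPM in WT males and between 1.002 and 2.08 in APP/PS1 males, with a log2 fold change of -0.84 (SE 0.45, adjusted p = 0.972). In females it was -0.30 (SE 0.50, adjusted p = 0.895), and without WT female 2 this became 0.73.

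Meg3 varied widely between animals of one group. Its within-group SD of 0.785 on the log2 scale was at the 98.7th percentile of the genes tested, where Dlk1 was at the 97.9th, Plagl1 at the 91.4th and Ndn at the 85.6th. It was at 138 and 255 normalized CPM in WT females, 242, 194, 126 and 61.3 in APP/PS1 females, 89.2 and 96.6 in WT males, and 69.8, 92.9, 88.3 and 269 in APP/PS1 males. The highest and the lowest animal thus differed 4.39-fold, both were APP/PS1 animals, and the groups overlapped in both sexes. The log2 fold change was 0.04 (SE 0.28, adjusted p = 0.979) in females and 0.22 (SE 0.27, adjusted p = 0.999) in males, and both signs changed with the processing. Of the 18089 exonic bases of Meg3, 271 are shared with small RNA genes on the same strand and 1228 with a gene on the other strand.

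Rian and Mirg, noncoding RNAs of the same maternal cluster, were looked at after the values of Meg3 had been seen. Mirg followed it (Pearson r = 0.944, Spearman's rho = 0.937, permutation adjusted p = 0.00076 for both over 38 relations, n = 12). Its r was 0.899 without the 2 animals farthest from the median of Meg3, and 0.928 without the choroid plexus-rich libraries (exact permutation adjusted p = 0.00634, n = 9). For Rian the relation with Meg3 passed for r (0.741, permutation adjusted p = 0.0414, n = 12) and not for rho (0.636, permutation adjusted p = 0.113). Its r was 0.553 without the 2 farthest animals, 0.579 without the choroid plexus-rich libraries (exact permutation adjusted p = 0.305, n = 9) and 0.808 in the APP/PS1 animals (exact permutation adjusted p = 0.128, n = 8), and passed in neither of these sets of animals. Rian ranged 1.39-fold over the libraries and Mirg 3.23-fold. Neither passed the test for genotype, with log2 fold changes over both sexes of 0.06 for Rian (adjusted p = 0.868) and 0.03 for Mirg (adjusted p = 0.982).

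**Figure D4:**
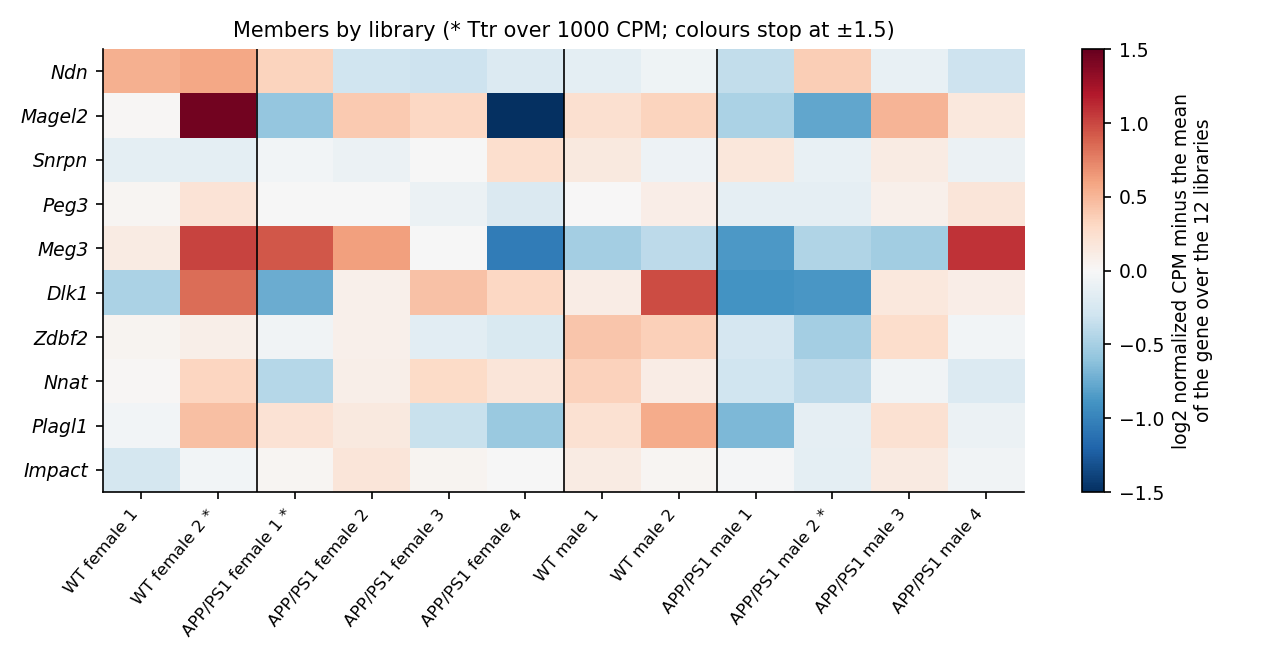
Each gene's log2 normalized CPM minus its mean over the 12 libraries, by library (* libraries with Ttr over 1000 CPM; colours stop at 1.5 in either direction). The rows of Meg3, Dlk1 and Magel2 vary most. Ndn and Meg3 are both high in APP/PS1 female 1 and WT female 2. Of the pair, APP/PS1 male 2 is high in Ndn only and APP/PS1 male 4 in Meg3 only. In WT female 1, which is high in Ndn, Meg3 is near its mean.

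The 36 pairs among the 9 genes other than Ndn were also compared, a choice made after the values were seen. Over the 12 animals, 29 pairs had a positive r, and the median r was 0.381. By permutation test, 5 pairs passed an adjusted p of 0.05 for Pearson's r and 7 for Spearman's rho, with the same 5 passing both. These 5 were Peg3 with Magel2 (r = 0.811, rho = 0.734), Peg3 with Plagl1 (0.757, 0.755), Nnat with Dlk1 (0.777, 0.755), Zdbf2 with Plagl1 (0.737, 0.867) and, with the opposite sign, Meg3 with Snrpn (-0.73, -0.74). Their permutation adjusted p-values ran from 0.0249 to 0.0436 for r and from 0.0108 to 0.042 for rho (n = 12). Animals were shuffled across genotypes and sexes, so these p-values do not separate differences between groups from variation between animals of a group. The pairs that passed for rho only were Peg3 with Zdbf2 (rho = 0.748, r = 0.629) and Magel2 with Zdbf2 (rho = 0.734, r = 0.584). With the 2 animals farthest from the median of the first gene left out, the 5 values of r were 0.594, 0.612, 0.636, 0.888 and -0.68 in the same order. Within the 8 APP/PS1 animals 0 pairs passed for r or rho (exact permutation tests). Without the choroid plexus-rich libraries Zdbf2 with Plagl1 passed both (r = 0.937, rho = 0.950, exact permutation adjusted p = 0.00634 and 0.0134, n = 9), and Meg3 with Snrpn passed for rho only (r = -0.82, rho = -0.92, exact permutation adjusted p = 0.0821 and 0.0249, n = 9). Magel2 and Dlk1 had few counts, so their r carries counting error.

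The promoters of the 10 genes were read from the RefSeq windows of GRCm38.p6, 300 bases long with 250 before and 50 after each start. Of the 10 genes, 9 had 14 windows in all. TGCCGC, the hexamer bound in its methylated form by ZFP57, which guards methylation at imprinted regions, was searched on both strands. It was present in 5 of the 14 windows, those of Zdbf2, Nnat, Plagl1, Meg3 and Snrpn with 1 window each, against 11.6% of all 32851 windows and 15 of the 73 windows (20.5%) of the other imprinted genes. Ndn, Magel2, Peg3 and Dlk1 did not have these letters in their windows. The Ndn window (chr7:62348027-62348326) lies inside the single Ndn exon of GENCODE M21, so the sequence before that exon was not searched. The 14 windows held between 1 and 38 CG dinucleotides, where the median was 7 over all windows and 16 over those of the other imprinted genes, and 9 of the 14 were above 7. The upstream stretches of Meg3, the gene of the set with the largest within-group SD, and of Zdbf2, the gene with the lowest p in males, are shown with the hexamer in capitals. They are chr12:109540746-109540995 and chr1:63200108-63200312, both on the plus strand, and neither contains a base of an exon in GENCODE M21. The Zdbf2 window shown is that of the upstream start.
Meg3: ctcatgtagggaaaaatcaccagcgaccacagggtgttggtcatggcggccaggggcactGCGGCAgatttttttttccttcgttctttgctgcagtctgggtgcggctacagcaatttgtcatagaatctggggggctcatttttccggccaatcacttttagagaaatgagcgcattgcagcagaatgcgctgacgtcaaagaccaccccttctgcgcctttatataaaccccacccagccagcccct
Zdbf2: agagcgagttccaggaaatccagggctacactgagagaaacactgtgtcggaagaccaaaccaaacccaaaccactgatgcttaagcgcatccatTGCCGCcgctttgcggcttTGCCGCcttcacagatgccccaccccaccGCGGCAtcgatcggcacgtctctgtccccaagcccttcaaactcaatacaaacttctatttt
The Zdbf2 stretch held 3 hexamers and the Meg3 stretch 1. The other Zdbf2 window (chr1:63273019-63273318), at the gene start given above, held 0, as did the other Meg3 window. Only 1.53% of all windows held 2 or more.

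Over both sexes averaged, 0 of the 8 tested genes other than Ndn passed by edgeR's quasi-likelihood test, against 1.9% of all genes tested. DESeq2 called 1, Zdbf2 (2.85% of all genes), and the likelihood ratio test called 0 (2.83%). The median log2 fold change was -0.19, and 5 of the 8 were negative, against 45.3% of all genes. At an unadjusted p under 0.05, which 9.58% of all genes had, Zdbf2 (log2 fold change -0.30, SE 0.10), Nnat (-0.32, SE 0.12) and Plagl1 (-0.37, SE 0.16) were lower and 0 were higher. The averaged value of Ndn was -0.36 (SE 0.09), with no test. For the interaction and for the sexes within WT and within APP/PS1, again 0 of the 8 passed in each by edgeR, against 0.0%, 0.0571% and 0.0857% of all genes. At an unadjusted p under 0.05 there were 1, 1 and 0 of the 8, against 4.03%, 5.16% and 5.35% of all genes. Impact was the gene in both, higher in WT males than in WT females by 0.23 on the log2 scale (female minus male -0.23, adjusted p = 0.935). DESeq2 and the likelihood ratio test called 0 in each.

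A wider list of 57 other imprinted genes was written by hand, of which 40 passed the expression filter. By edgeR 0 of the 40 passed the FDR in females, in males or over both sexes, and at an unadjusted p under 0.05 there were 4, 4 and 3, where 9.77%, 5.7% and 9.58% of all genes had such a p. The likelihood ratio test called 0 in each, and DESeq2 called 0, 0 and 2, the latter Bcl2l1 and Peg10, where it called 2.85% of all genes over both sexes. The median log2 fold change was 0.0035 in females, -0.03 in males and -0.02 over both sexes. The 8 with the smallest p over both sexes were Bcl2l1, Ddc, Peg10, Snhg14, Begain, Cobl, Mest and Dio3. Of these, Bcl2l1, an inhibitor of apoptosis, had a log2 fold change of -0.15 (SE 0.05, adjusted p = 0.177), Ddc, which makes dopamine and serotonin, one of -0.25 (SE 0.09, adjusted p = 0.341), and the retrotransposon-derived Peg10 one of -0.47 (SE 0.18, adjusted p = 0.422). Snhg14, the long noncoding RNA that runs from Snrpn towards Ube3a, was at 0.19 (SE 0.10, adjusted p = 0.571). Dio3, which inactivates thyroid hormone and shares a cluster with Dlk1, was at -0.48 (SE 0.26, adjusted p = 0.603).

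**Figure D5:**
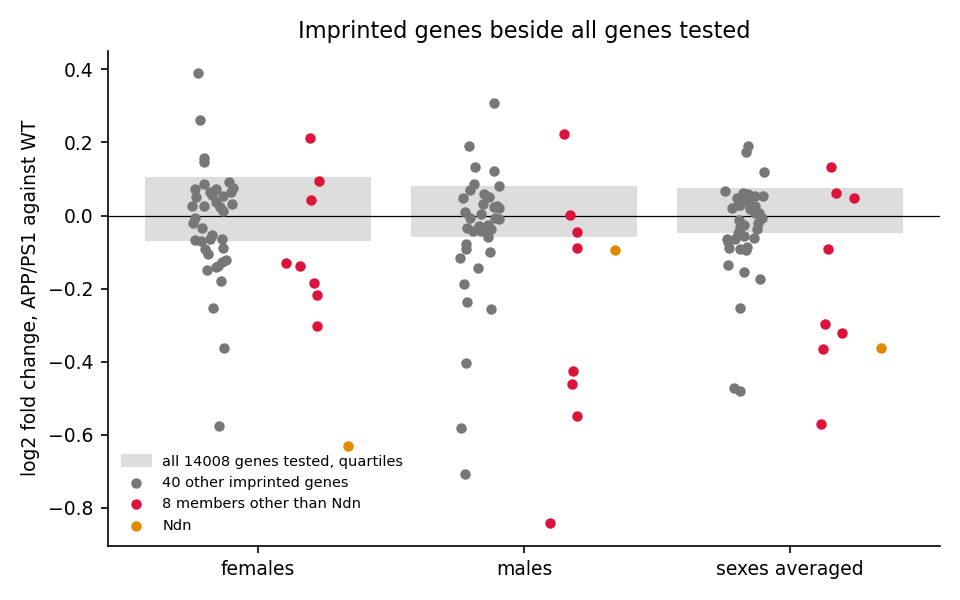
Log2 fold changes of APP/PS1 against WT in females, in males and averaged over both sexes for Ndn, the 8 other tested genes of the set and 40 other imprinted genes (points spread sideways for clarity; grey bands, quartiles of all 14008 genes tested). In females Ndn, which was chosen for its fall there, is at -0.63 and lies below the 48 other imprinted genes. In males it does not.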

How the data were processed

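Paired-end mRNA reads were trimmed with Trimmomatic, aligned to GRCm38 with STAR and counted per gene with HTSeq by the authors, who deposited raw counts per gene. The tool versions, the annotation release and the strand and multi-mapping settings are not given in the sources used here. Of the 55573 identifiers, 55480 matched GENCODE M21, which gave symbols, positions and overlaps. Groups came from the sample labels. Genes with a log2 CPM of 1 in 3 or more libraries were tested in one model of the 12 libraries (edgeR 4.0.16, R 4.3.3) with upper-quartile scaling and 2 RUV factors, computed by a re-implementation of RUVg with all genes but the top 5000 as controls. The quasi-likelihood test was two-sided, with Benjamini-Hochberg adjustment over all genes tested and an FDR of 0.1. Intervals are the estimate plus or minus 2 SE.

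The imprinted genes, the gene lists and the tests were chosen with earlier results of these data known. The named genes were the 10 members, the 8 other imprinted genes with the smallest p over both sexes, the 5 genes most like Ndn by Pearson's r, and the check genes Ttr, Folr1, Kl, Thy1 and Prnp. Any other gene was named after its values were seen. Relations of log2(normalized CPM + 0.5) were tested by permutation (Python 3.11.15, scipy 1.17.1), with 100000 resamples for 12 animals and exactly for fewer. Animals were shuffled freely between groups, so group differences enter these p-values. Each pair of libraries in a group differed by more than sampling noise (chi-square of 15.5 to 73 per degree of freedom). The fit was tested on simulated data. The settings tried in their place were DESeq2 1.42.0 and the likelihood ratio test of edgeR, TMM scaling, no filter or a filter of 1 CPM, 0 or 1 RUV factor, a choroid plexus score as covariate, a replicate block, each sex alone, an FDR of 0.05, and leaving out each animal or the 3 choroid plexus-rich libraries. The number of animals limits precision, and for the low counts of Magel2 and Dlk1 counting error adds to it. The identity of the necdin and MAGEL2 proteins was not analysed here.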

Additional observations from a re-analysis of the deposited data

Results flagged for a closer look

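Dixon's ratio, the gap of the highest or lowest animal to its nearest neighbour over the range of the group, was taken in 20 groups of 4 animals (10 genes in the APP/PS1 groups of both sexes), and chance passes its 95% critical value in about 1 of 20 groups. Meg3 in APP/PS1 male 4 was at 269.0 normalized CPM where the others of its group were at 69.8, 88.3 and 92.9 (ratio 0.884). That library is not choroid plexus-rich. Ndn in APP/PS1 female 1 was at 194.0 normalized CPM where the others of its group were at 124, 125 and 133, which is given as a description, since Ndn was chosen for its values in females. That library is choroid plexus-rich, and the part of this in its Ndn level was not tested.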

How the results depend on the processing

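The female log2 fold change of Ndn was negative in all 23 alternatives, from -0.84 to -0.53, and is untested. In males that of Ndn became 0.028 without RUV factors and 0.031 with each sex alone. Meg3 in females became -0.021 without a filter, -0.34 without RUV factors and with each sex alone, -0.24 with 1 RUV factor and -0.23 with the choroid plexus score. Snrpn in males became -0.0070 with DESeq2, -0.0055 with TMM scaling, -0.010 without RUV factors and -0.0058 with each sex alone. Without the choroid plexus-rich libraries, Nnat in females became 0.15, Dlk1 in females 0.84 and Dlk1 over both sexes 0.031. With a replicate block, Meg3 became -0.11 in females, -0.086 in males and -0.099 over both sexes, and Snrpn in males -0.0074. The replicate numbers share no animal. The median r of deviations from group means was 0.0012 for the same number (-0.685 to 0.744) and 0.025 for different numbers (-0.744 to 0.739). The deviations of the 2 libraries of a WT group mirror each other, which draws these medians towards 0. They cannot show whether libraries of the same number were handled together. Under the block 0 of the 8 tested genes and 0 of the other imprinted genes passed. For these values the cause was not tested.

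With 1 animal left out, Peg3 in males ran from -0.099 to 0.0045, Meg3 from -0.21 to 0.31 in females, from -0.16 to 0.42 in males and from -0.12 to 0.24 over both sexes, Snrpn in males from -0.088 to 0.094, Nnat in females from -0.46 to 0.045, and Dlk1 from -1.05 to 0.73 in females and from -0.86 to 0.0029 over both sexes. The number of the 8 tested genes past the FDR ran from 0 to 2 in males and over both sexes, 2 being Zdbf2 and Plagl1 without APP/PS1 male 3, and DESeq2 gave 1 in each, Zdbf2. Among the 40 other imprinted genes it ran from 0 to 1 in females, in males and over both sexes, with Peg10 passing without WT female 1 (females, both sexes) or without WT female 2 (males), Cobl in females without WT female 2, and Bcl2l1 over both sexes without APP/PS1 male 4. Over both sexes DESeq2 called 2 of these and the fit without the choroid plexus-rich libraries called 2 (Cobl and Snhg14), and in females the latter called 1, Cobl. The pairs of genes past an adjusted p of 0.05 for Pearson's r (Spearman's rho) were 5 (7) in 12 animals, 0 (0) in the 8 APP/PS1 animals and 1 (2) in the 9 without choroid plexus-rich libraries, alternatives chosen after seeing the data. Over all genes, 107 passed in females, 24 in males and 266 over both sexes, against 296, 146 and 399 with DESeq2 and 288, 142 and 397 with the likelihood ratio test. With 2 WT animals per sex, 1 animal can decide a call, and without the choroid plexus-rich libraries 1 WT female was left, assumed to vary like the other groups.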

Other observations

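Other imprinted genes, chosen after their values were seen, were high in the 3 choroid plexus-rich libraries. Cdkn1c, which encodes an inhibitor of the cell cycle, was at 13.7 to 21.04 normalized CPM in these libraries and at 1.56 to 2.98 in the other 9. The growth factor gene Igf2 was at 2.38 to 4.78 against 0.385 to 1.31, and Slc22a18, a transporter gene of the Cdkn1c cluster, at 0.834 to 0.868 against 0.111 to 0.310. The ranges of Cdkn1c, Igf2 and Slc22a18 did not overlap between these sets of libraries, which hold animals of both genotypes. As these genes were picked after their values were seen, they do not measure how common such a split is. The share of all genes that split this way was not computed. Slc22a18 had only 34 to 38 counts per library against 4 to 13. Of the imprinted genes Bcl2l1, Ddc, Peg10, Snhg14, Begain, Cobl, Mest and Dio3, named above, Mest alone did not overlap either. It was at 29.4 to 36.1 against 17.8 to 27.6 normalized CPM. Peg10, for instance, did overlap, at 14.1 to 30.3 against 16.5 to 29.2 normalized CPM. No test was made, as the libraries were set apart by a measured gene.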
